A study of Mus musculus with 83 samples.

Results

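Small RNAs bound to AGO2 were compared with the total small RNA of the same kind of cell, control mouse embryonic stem cells (ESCs). Members were chosen by their titles: 4 libraries of RNA pulled down with an AGO2 antibody (AGO2 control, replicates 1 to 4) and 3 libraries of total small RNA of day 9 control cells without a suffix (day 9 control, replicates 1 to 3), 7 of the 83 samples of the series. All came from an ESC line, tagged E14 in the labels and described as C57BL/6 in the study's methods, whose *Dnmt1* alleles carry loxP sites and are cut by a tamoxifen-induced Cre recombinase. The control cells had kept *Dnmt1*. Whether they received tamoxifen is not given in the sources used here. The cells grew in serum with LIF, with or without feeder cells, and the labels do not say which libraries had feeders. The labels give no day for the pull-down, which the study places 9 days after the deletion. Its genotype tags contradict the titles (AGO2 control is tagged Dnmt1 KO), and the titles were followed. The labels name no shared culture for the pull-down and total libraries, and p-values therefore measure the spread between these samples, part of which may be technical. For comparison only, the same contrast was taken in Dnmt1 KO cells (4 AGO2 and 3 day 9 libraries), and single values are given for 3 day 25 control totals and for 1 control library titled "none". That word is not explained in the labels, and the study describes a negative control of beads and extract without serum.

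Argonaute proteins hold a small RNA of about the length of a miRNA and use it to find target RNAs by base pairing. The bases near the 5′ end of the small RNA, the seed, carry most of this pairing. Most miRNAs are cut from a hairpin, first by Drosha with DGCR8 and then by Dicer, and the strand that enters Argonaute is the mature miRNA. AGO2 is the member best known for cutting its target. ESCs are known for miRNAs of the miR-290 cluster and of the miR-17-92 family. A total small RNA library, in contrast, also takes in fragments of snoRNAs, snRNAs, tRNAs, rRNA and mRNA that fall within the size range sequenced.

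The mature sequences of the miRNAs on which the results turn are given here first, from RefSeq, 5′ to 3′, with the seed (bases 2 to 8) in capitals. A feature of the table covers a whole hairpin, so the 2 arms cannot be told apart in any value given here, and the arm printed is 1 of those that RefSeq lists for it. The hairpins of the first set gained over 1 log2 unit in their share of the miRNA reads with AGO2:
mmu-miR-423-5p: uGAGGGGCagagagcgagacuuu
mmu-miR-672-5p: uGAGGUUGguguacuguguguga
mmu-miR-141-3p: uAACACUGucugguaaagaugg
mmu-miR-877-5p: gUAGAGGAgauggcgcaggg
mmu-miR-676-3p: cCGUCCUGagguuguugagcu
mmu-miR-484: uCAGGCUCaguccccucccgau
mmu-miR-125a-5p: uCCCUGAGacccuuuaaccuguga
The hairpins of the second set fell, and miR-125b is included because it has the seed of miR-125a:
mmu-miR-214-3p: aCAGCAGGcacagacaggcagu
mmu-miR-127-3p: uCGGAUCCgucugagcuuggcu
mmu-miR-434-3p: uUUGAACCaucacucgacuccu
mmu-miR-10a-5p: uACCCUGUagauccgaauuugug
mmu-let-7i-5p: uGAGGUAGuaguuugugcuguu
mmu-let-7g-5p: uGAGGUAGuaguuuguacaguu
mmu-miR-125b-5p: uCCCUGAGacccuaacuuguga
The third set comes from members of the miR-17-92 family and of the miR-290 cluster, but for its last sequence. These members are shown because features of 1 transcript took different shares of the AGO2 reads. The last sequence is miR-182-5p of the miR-183 cluster, shown because Mir182 was the most abundant miRNA feature:
mmu-miR-17-5p: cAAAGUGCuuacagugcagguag
mmu-miR-20a-5p: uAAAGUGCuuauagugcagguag
mmu-miR-106b-5p: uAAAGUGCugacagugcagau
mmu-miR-92a-3p: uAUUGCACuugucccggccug
mmu-miR-25-3p: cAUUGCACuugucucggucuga
mmu-miR-295-3p: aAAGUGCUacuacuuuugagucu
mmu-miR-182-5p: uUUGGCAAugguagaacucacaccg

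A value is a feature's reads per 1000000 reads of the library (RPM). The library total was read from the steps of the deposited values. Whether it takes in reads outside annotated features is not given in the sources used here. AGO2 control libraries held 11497719 to 25423013 reads and day 9 control libraries 4135228 to 5668458. Across the 1328 features with at least 10 RPM in at least 3 of the 7 libraries, Pearson's r of log2(RPM + 1) was 0.982 to 0.997 between AGO2 libraries, 0.996 to 0.997 between total libraries and 0.472 to 0.519 between an AGO2 and a total library. Over the 255 miRNA features among them, r between an AGO2 and a total library was 0.758 to 0.826. These are correlations across features, which are not independent replicates. AGO2 replicates 1 and 2 resembled each other more than either resembled 3 or 4, and the series' design text speaks of 2 biological replicates for 2 of its samples. Of 208 miRNA features with at least 10 RPM, 32 were over 1 log2 unit higher in replicates 1 and 2 and 5 in replicates 3 and 4.

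Among annotated features, nearly all reads of the pull-down fell in miRNA features. miRNA features took 99.02% ± 0.0913 of the reads with AGO2 (SD, n = 4) and 58.23% ± 0.304 in total small RNA (SD, n = 3), a difference of 40.79 percentage points (exact permutation test, two-sided, p = 0.0571, the smallest that 4 against 3 libraries allow, and adjusted p = 0.0571 over 8 classes). C/D box snoRNAs, which guide 2′-O-methylation of rRNA, were the main other class of the total libraries with 16.96% ± 0.968 of the reads, and with AGO2 they held 0.01388% ± 0.00585, a share 1222 times lower. Mitochondrial tRNA and rRNA fell from 0.9118% ± 0.0422 to 0.001964% ± 0.000249, or 464 times, and snRNAs, the RNAs of the spliceosome and of histone mRNA processing, from 0.5863% ± 0.0259 to 0.002238% ± 0.000552, or 262 times. H/ACA snoRNAs with scaRNAs, which guide pseudouridylation, were 21.5 times lower with AGO2, Y RNA with 7SK 21.0 times, rRNA 34.98 times and genes that overlap no small RNA feature 17.2 times. In each of the 8 classes the 4 AGO2 libraries lay apart from the 3 total libraries, and each gave the same exact p of 0.0571. The study reports a lower share of known miRNAs in its AGO2 libraries, with part of the rest mapping to transposable elements. The features counted here are annotated genes, with none for transposable elements, so these shares do not measure that part. The total of reads behind them may also differ from the study's.

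**Figure D1:**
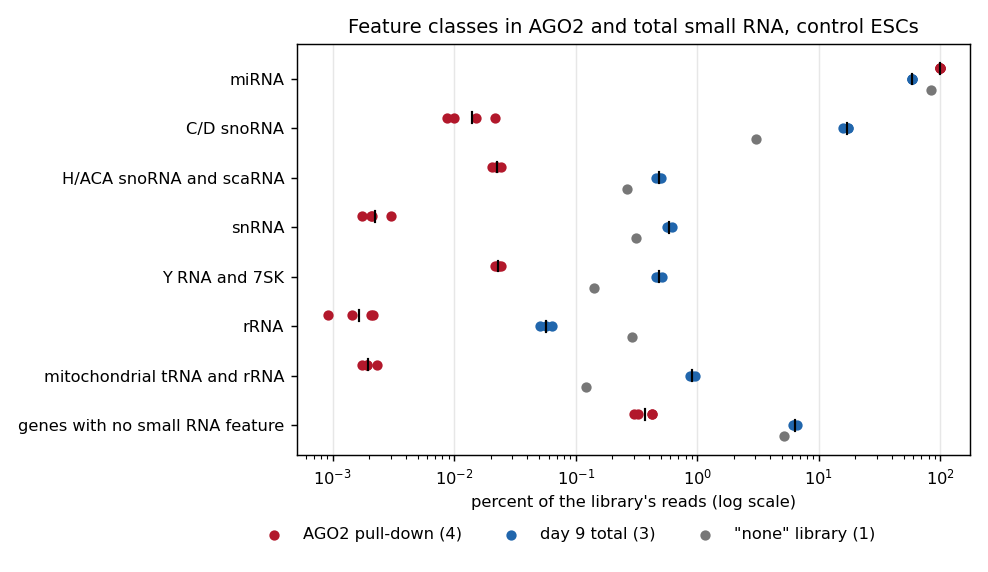
Percent of a library's reads (log axis) in 8 feature classes. Each point is a library, the black ticks are group means, and classes overlap because a read can count for a miRNA and its host gene. miRNAs are at 99.02% with AGO2 against 58.23% in total RNA, and every other class lies left of the total libraries, C/D snoRNAs the furthest.

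The control library titled "none" lay between them. It held only 57155 reads, of which 84.12% fell in miRNA features (Wilson 95% confidence interval 83.81 to 84.41, counting error only), 3.043% in C/D snoRNAs (2.905 to 3.187) and 5.198% in genes without a small RNA feature (5.019 to 5.383). rRNA was an exception, with 0.2922% (0.2512 to 0.3399) in this library, above the 0.05716% ± 0.00651 of the total libraries. Over miRNA features its log2 values correlated with the AGO2 libraries at r = 0.88 to 0.90 and with the total libraries at 0.83 to 0.85. How much of the AGO2 signal it stands for was not tested.

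Feature by feature, 1220 of 1328 features (91.9%) passed the test (limma-trend, Benjamini-Hochberg adjusted p under 0.05), of which 173 (13.0% of those tested) were higher and 1047 (78.8%) lower with AGO2. The median log2 fold change over all features tested was −3.73 on the log2(RPM + 1) scale. Of the 1328 features, 973 passed the filter only through the total libraries and 32 only through the AGO2 libraries, so that the direction of most was bound to the filter. With at least 10 reads in every library instead, which leaves out what AGO2 libraries lack, 913 features were tested, of which 175 (19.2%) were higher and 559 (61.2%) lower, with a median of −0.999. These calls are changes in the share of a library. With factors that assume that most features stay equal, the split moved to 417 higher and 753 lower (TMM, median −0.87) and to 479 higher and 620 lower (median-ratio factors, median −0.40). With the miRNA total as the scale it was 81 higher and 1132 lower (median −4.48). On the scale of library totals, 94 of the 255 miRNA features tested were higher, 92 lower and 69 not called, with a median log2 fold change of 0.12.

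**Figure D2:**
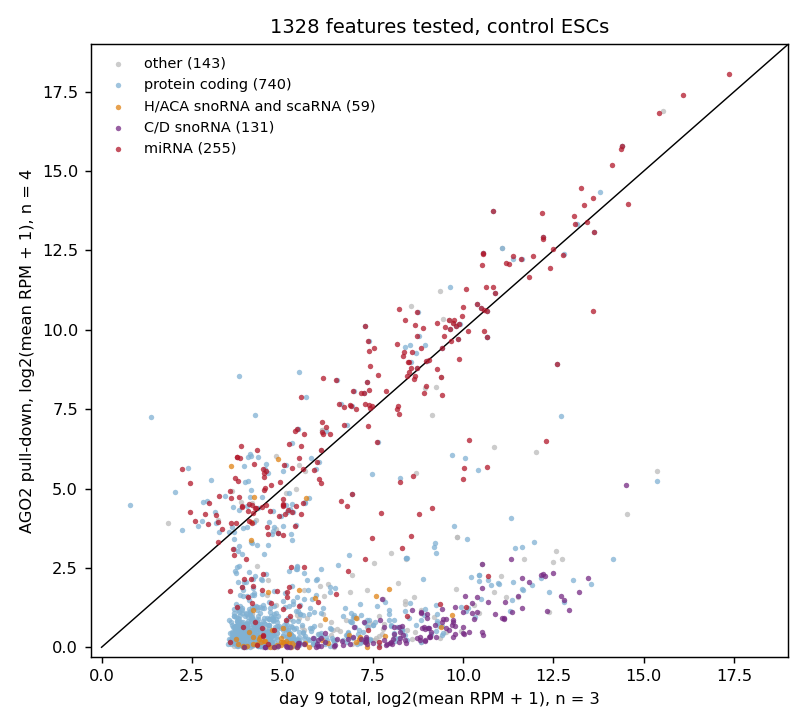
Mean level of each of the 1328 features tested in day 9 total small RNA (x axis, log2(mean RPM + 1), n = 3) and with AGO2 (y axis, same scale, n = 4), with the line of equal share. miRNAs follow the line, C/D snoRNAs lie along the floor of the AGO2 axis, and some miRNA features lie far below the line.

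Of the 131 C/D snoRNA features tested 130 passed the filter only through the total libraries, so that the fall of all 131 (median log2 fold change −8.27, or −8.55 with the 21 at most at 3 reads in every AGO2 library set to their bound) is a description. With at least 10 reads in every library 30 remained, and all 30 were lower (median −9.52 against −0.999 over the 913 features of that filter). The most abundant in both kinds of library was SNORD44 (chr1:162966813-162966872 of NCBIM37, on the strand of and within the lincRNA gene *Gas5*, a host of several snoRNAs). It measured 22271, 24905 and 23309 RPM in the 3 total libraries and 38.1, 21.0, 19.3 and 55.0 RPM in the 4 AGO2 libraries, 705 times lower (log2 fold change −9.54, SE 0.34, adjusted p = 2.73e-09). Snord12, in the host gene *1500012F01Rik*, had the largest fall of all, from 7508, 8045 and 7808 RPM to 1.24, 0.348, 0.534 and 2.83 RPM (log2 fold change −11.89). The "none" library held 6876 RPM of SNORD44, and its share of C/D snoRNAs, given above, also lay between those of the AGO2 and the total libraries. SNORD81, also in *Gas5*, went from 8489 to 10188 RPM down to 1.89 to 2.80 RPM. The groups did not overlap in any of these snoRNAs, nor in 1224 of the 1328 features tested. The host genes of these snoRNAs fell with them, since a read inside a snoRNA also counts for its host. *1500012F01Rik* had 11629.8 to 12182 RPM in total RNA and 1.75 to 5.58 with AGO2, and *Rpl17*, a ribosomal protein gene that hosts SNORD58, had 17306 to 18577 RPM and 3.15 to 9.76.

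H/ACA snoRNAs and scaRNAs were mixed. Of 59 tested, 55 were lower, 1 was not called and 3 were higher, with a median log2 fold change of −4.77 (−5.88 with the 19 that had at most 3 reads in every AGO2 library at their bound), but 54 of the 59 passed the filter only through the total libraries. With at least 10 reads in every library 15 were tested (12 of these 59 and others below the first filter), 11 lower and 3 higher, with a median of −0.98, near the −0.999 of all features under that filter. Snora16a, in an intron of the lincRNA gene *Snhg12*, was the most abundant in the total libraries with 777 to 861 RPM and had 0.582, 0.609, 0.643 and 2.203 RPM with AGO2, 819 times less. The 3 that rose had modest levels and kept the same direction with library totals in both genotypes. Snora36b (chr1:187066786-187066917, in an intron of *Rab3gap2*) had 53.2, 40.8, 59.4 and 53.2 RPM with AGO2 against 11.8, 8.82 and 11.99 RPM in total RNA, 4.74 times more (log2 fold change 2.15, SE 0.17, adjusted p = 1.65e-06). It was the 1 feature of the 59 that passed the filter only through the AGO2 libraries, so its rise was bound to the filter and is a description. Snora41, in an intron of *Eef1b2*, had 53.4 to 67.7 RPM against 26.8 to 30.3 RPM. Scarna3a had 24.1 to 29.8 RPM against 15.96 to 20.4 RPM, a rise that turned into a fall of 0.22 on the log2 scale when the miRNA total was the scale. In none of the 3 did the AGO2 and total values overlap.

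Among the remaining structural RNAs, all 17 snRNAs, 16 mitochondrial tRNAs and rRNAs and 7 rRNAs tested passed the filter only through the total libraries, as did 1 of 3 Y RNAs and 7SK, and their falls (medians −6.76, −6.87, −5.14 and −5.86) are descriptions. With at least 10 reads in every library, 8 of 8 snRNAs, 5 of 5 mitochondrial RNAs, 3 of 3 rRNAs and 2 of 2 Y RNA and 7SK features were lower, beside 61.2% of all features, with medians of −6.99, −7.91, −5.13 and −3.85. The most abundant snRNA of the total libraries was a U5 feature, a core RNA of the spliceosome, at 1692 to 1979 RPM against 0.873 to 3.93 RPM with AGO2. U7, which guides the 3′ processing of histone mRNAs, had 301 to 382 RPM against 4.42 to 6.70 RPM. The mitochondrial 16S rRNA mt-Rnr2 had 3157 to 3429.5 RPM against 4.85 to 6.69 RPM. A pair of neighbouring Y RNA features on chromosome 6 differed from each other. The Y RNA at chr6:47738068-47738179 went from 3911 to 4483 RPM down to 58.5 to 80.5 RPM, 59.3 times lower, while the one at chr6:47731623-47731724 went from 562 to 569 RPM to 154 to 164 RPM, 3.55 times lower.

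A few miRNAs made up most of the pull-down, and most of them were also the most abundant in total RNA. The 6 most abundant miRNA features took 69.4 to 74.5% of the miRNA reads of an AGO2 library and 58.5 to 61.8% of a total library. Mir182 led both kinds of library. It is the product of the miR-183 cluster, and it held 204707 to 329658 RPM with AGO2 and 165668 to 174778 RPM in total RNA, which is 20.7 to 33.3% and 28.3 to 30.1% of the miRNA reads. Its share of the miRNA reads did not pass the test (log2 fold change −0.11, SE 0.16, adjusted p = 0.553). RefSeq gives the mature miR-182-5p 25 bases, and the study kept reads of 20 to 24. Mir295 had 170483, 195485, 149604 and 180357 RPM with AGO2 and 66839, 70741 and 71225 RPM in total RNA, a rise of 2.50 times (log2 fold change 1.32, SE 0.08, adjusted p = 2.68e-07). Mir92-1 rose from 42477, 45394 and 44039 RPM to 124343, 117847, 115537 and 111616 RPM, 2.67 times. Mir22 rose from 21004 to 23150.4 RPM to 42769 to 68945 RPM. Each of these rises exceeded the 1.70 times by which miRNAs rose as a class.

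Whether a miRNA gained or lost within the miRNA reads was therefore read on a second scale, in which each library is scaled to the sum of its miRNA reads (here the miRNA scale). On it, 174 of 255 miRNA features (68.2%) passed the test, with 39 higher (15.3%) and 135 lower (52.9%) and a median log2 fold change of −0.64. Of the 255, 57 had passed the filter only through the total libraries and 13 only through the AGO2 libraries. The split depended on the scale within the miRNAs: with TMM factors over them the counts were 91 higher (35.7%) and 92 lower (36.1%, median 0.09) and with the 5 most abundant left out of the scale 74 and 106 (median −0.19). Gains of over 1 log2 unit, such as those that follow, were larger than these shifts.

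The largest gain was that of Mir423 (chr11:76891566-76891674, in an intron of *Ccdc55*). It had 15192, 15594, 11256 and 12366 RPM with AGO2 and 1747, 1884 and 1845 RPM in total RNA, 7.45 times more, and on the miRNA scale its log2 fold change was 2.12 (SE 0.13, adjusted p = 8.90e-06). All 4 AGO2 values lay far above all 3 total values, and groups without overlap were a condition for naming it. Mir672 (X chromosome) followed with 976 to 1314 RPM against 148 to 161 RPM and a miRNA-scale log2 fold change of 2.08. Mir141, of the miR-200 family, had 1221 to 1829.8 RPM against 252 to 335 RPM (1.64), and Mir676, in an intron of *Eda*, 744 to 849 RPM against 161 to 168 RPM (1.52). Mir674 (598 to 714 RPM against 154 to 187), Mir328 (318 to 386 against 85.9 to 91.4) and Mir125a (4196 to 6603 against 1469.9 to 1494) gained 1.17, 1.17 and 1.11 on the miRNA scale. Mir467d, from the *Sfmbt2* intron that holds a large rodent miRNA cluster, had 453, 567, 209 and 209 RPM against 64.6 to 72.9 RPM (1.47). Its AGO2 values fell into the pairs of replicates 1 with 2 and 3 with 4, and both pairs lay above the total libraries.

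Among the gainers were miRNAs that are known to skip a step of the usual pathway. Mir877 is a mirtron, a short intron (of *Abcf1*) that becomes a hairpin after splicing without Drosha, and its levels were 183, 216, 170.4 and 365 RPM with AGO2 and 42.6, 48.7 and 42.0 RPM in total RNA (5.25 times, miRNA-scale log2 fold change 1.55, adjusted p = 0.00167). Mir484, whose hairpin is the 5′ end of a capped transcript, had 1046 to 1613 RPM against 312 to 369 RPM (3.81 times, 1.15, adjusted p = 0.000692). Of the list of miRNAs cut from introns or made without Drosha or Dicer, 4 of 6 features passed the filter, 1 of them only through the AGO2 libraries. All 4 were higher in RPM, beside 94 of 255 miRNA features (median 1.45 against 0.12). On the miRNA scale 2 were higher, beside 39 of 255, and 2 did not pass. Those 2 were Mir320, another miRNA with a capped hairpin (505 to 694 RPM against 365 to 389 RPM, miRNA-scale −0.05), and Mir702 (12.3 to 16.5 RPM against 4.54 to 7.94 RPM, 0.30). Mir702 is known as a mirtron of *Plod3*, but in the annotation used here it overlaps an exon of that gene.

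**Figure D3:**
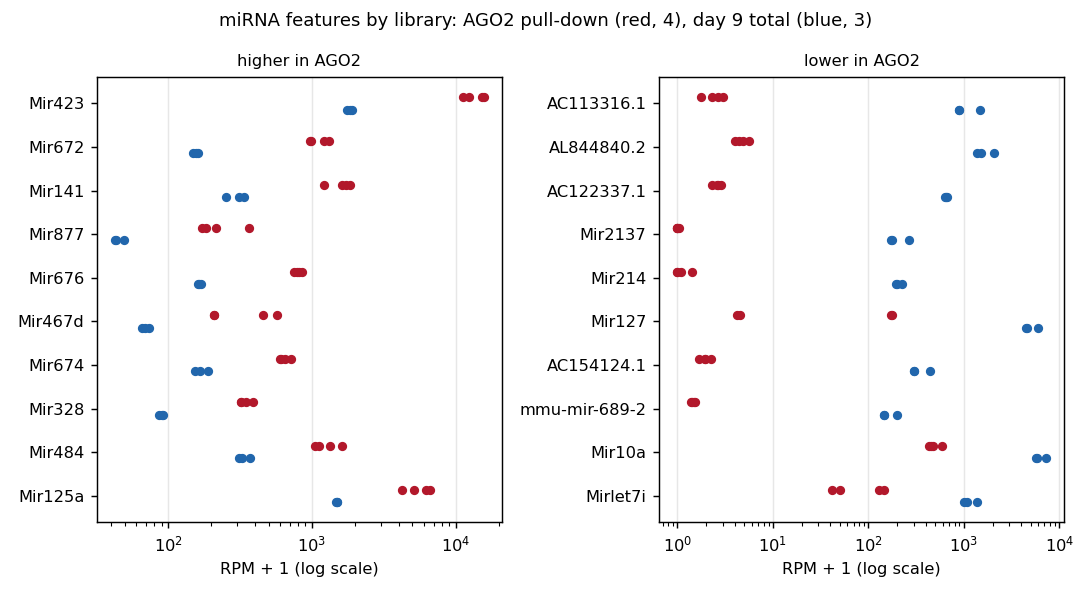
RPM + 1 (log axis) of 20 miRNA features in the 4 AGO2 libraries (red) and the 3 day 9 total libraries (blue), 1 point a library. In the left panel all AGO2 points lie above the total points, by 3.72 to 7.45 times on average, and in the right panel all lie below them, with AGO2 values under 5 RPM for 7 features and in separate pairs for Mir127 and Mirlet7i.

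The miR-200 family and the miR-183 cluster, known from epithelial and sensory cells and also made in ESCs, were higher in most members. Of 5 miR-200 features 4 passed the test and were higher, beside 94 of 255 miRNA features (median log2 fold change 1.44 in RPM and 0.67 on the miRNA scale), with Mir200b at 3348 to 5384 RPM against 1380.3 to 1552 RPM. Mir429 had 869 to 1469 RPM against 373 to 442 RPM and Mir200a 526 to 935 RPM against 262 to 313 RPM. The fifth, Mir200c, had 77.6 to 188 RPM against 63.8 to 81.2 RPM, with overlap (adjusted p = 0.0539). On the miRNA scale Mir141 and Mir200a, whose 3p arms share the seed AACACUG, gained 1.64 and 0.57, and Mir200b, Mir200c and Mir429, whose 3p arms share AAUACUG, changed by −0.09 to 0.73, with no way to tell which arm the reads came from. All 3 features of the miR-183 cluster were higher in RPM (Mir183 30460.5 to 47935 against 17385 to 17792), and on the miRNA scale only Mir96 passed (0.39, adjusted p = 0.0457).

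Members of 1 transcript differed in their share of AGO2. In miR-17-92, which is cut from the single transcript *Mir17hg*, the last hairpin Mir92-1 gained 0.65 on the miRNA scale (SE 0.06, adjusted p = 9.36e-05), while Mir17, Mir18, Mir19a and Mir20a fell by 0.76, 0.99, 0.79 and 0.96. In RPM, Mir17 did not pass, with 1388 to 1817 with AGO2 and 1490.4 to 1597 in total RNA (adjusted p = 0.947), and Mir20a was at 953 to 1053 against 1069 to 1169. The ratio of Mir92-1 to Mir17 within a library was 64.9 to 83.2 with AGO2 and 27.6 to 30.5 in total RNA, without overlap. This pair and the 3 others whose ratios follow were chosen after their values were seen and are descriptions. In Dnmt1 KO cells the same ratio was 66.1 to 129 with AGO2 and 37.7 to 40.0 in total RNA, and in the day 25 control totals it was 36.3 to 37.5.

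The related cluster miR-106a-363 on the X chromosome showed the same order. Mir106a, Mir18b and Mir20b fell by 1.56, 1.70 and 1.59 on the miRNA scale, Mir92-2 gained 0.55 and Mir363 changed by −0.08, which did not pass. Mir20b had 473 to 633 RPM with AGO2 and 923 to 994 RPM in total RNA, and Mir92-2 44569 to 59079 against 20332 to 22632 RPM. In miR-106b-25, in the *Mcm7* gene, Mir106b fell by 0.45, and Mir93 (−0.11) and Mir25 (−0.27) did not pass. Sorted by the seed of 1 arm instead, 5 of the 6 hairpins with AAAGUGC (Mir17, Mir20a, Mir20b, Mir93, Mir106a, Mir106b) were lower on the miRNA scale (−1.59 to −0.11), beside 52.9% of all miRNA features. With TMM factors over the miRNAs 2 of these 6 were lower (Mir20b and Mir106a) and 2 higher (Mir93 and Mir106b), so the direction of the group turned on the scale. Of the 5 hairpins of at least 100 RPM with AUUGCAC (Mir25, Mir92-1, Mir92-2, Mir92b, Mir363) 3 were higher on the miRNA scale (−0.27 to 1.07), beside 15.3% of all. With TMM factors 5 of 5 were higher (0.48 to 1.81), beside 35.7%. The falls of Mir17 and Mir20a did not pass with TMM factors (−0.01 and −0.22), while the gain of Mir92-1 did (1.39). Mir92-1 and Mir92-2 make the same mature miR-92a-3p, and reads that fit both hairpins could have been counted for either, so their separate levels are uncertain. Mir19b-1 and Mir19b-2, which also share their mature miRNA, were both near the filter (1.29 to 2.78 against 15.3 to 16.4 RPM, and 15.8 to 20.5 against 13.8 to 18.2 RPM) and are uncertain for the same reason.

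**Figure D4:**
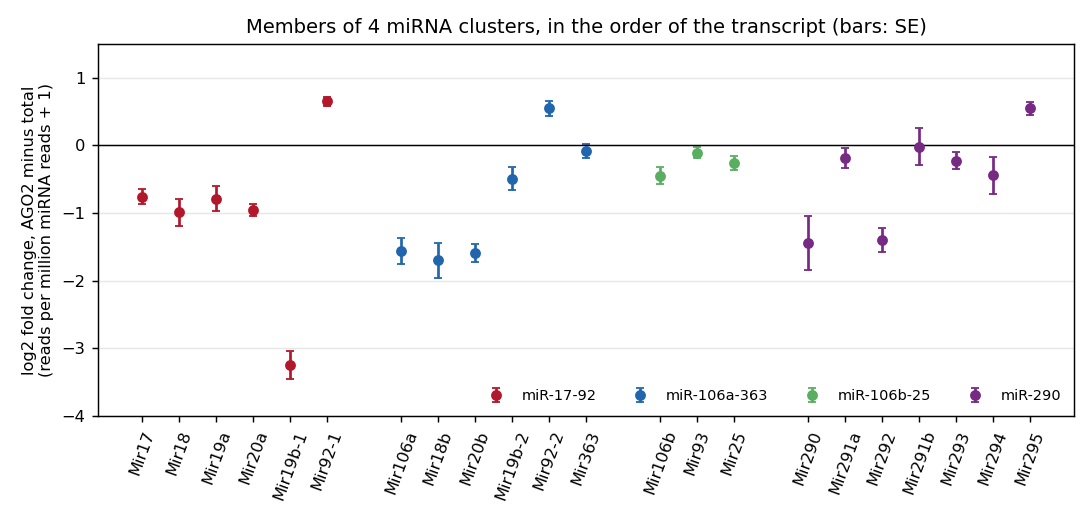
Log2 fold change of AGO2 against total (miRNA scale) for the members of 4 clusters, in 5′ to 3′ order of the transcript, with SE (n = 4 and 3). Mir92-1, Mir92-2 and Mir295 lie above 0, and the members of miR-17-92 and miR-106a-363 other than Mir92-1, Mir92-2 and Mir363 lie below it, at −0.49 to −3.25.

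In the miR-290 cluster, the main miRNA cluster of mouse ESCs, 4 of the 7 features were higher in RPM, beside 94 of 255 miRNA features. Another 1 was lower, beside 92 of 255, and 2 did not pass (median of the cluster 0.54). The direction of the median depended on the scale and on the comparator, with −0.23 on the miRNA total and −0.31 against day 25. Together the 7 features held 19.7 to 27.2% of the miRNA reads with AGO2 and 20.4 to 21.8% in total RNA. Within the cluster Mir295 gained 0.55 on the miRNA scale (adjusted p = 0.00168), while Mir292 fell by 1.40 (11693 to 20966 RPM against 23700.0 to 24449.8 RPM, adjusted p = 0.000359) and Mir290 by 1.44 (251 to 799.7 RPM against 601 to 643 RPM, adjusted p = 0.0131). Mir291a, Mir291b, Mir293 and Mir294 changed by −0.44 to −0.02, which did not pass. The ratio of Mir295 to Mir292 was 9.32 to 12.8 with AGO2 and 2.82 to 2.91 in total RNA. Among features of at least 100 RPM with a matched RefSeq arm, the seed AAGUGCU was found in miR-294-3p, miR-295-3p, miR-302b-3p and miR-302d-3p. Mir291a had no matched hairpin and Mir302a no matched 3p arm, so neither could be counted by this seed. Of these 4 matched features 1 was higher on the miRNA scale, beside 15.3% of miRNA features. Mir302a and Mir302d differed between the AGO2 pairs, Mir302a having 395 and 536 RPM in replicates 1 and 2 and 47.1 and 54.7 RPM in 3 and 4, against 122 to 178 RPM in total RNA. Taken alone, replicates 3 and 4 put Mir302a below total RNA (log2 fold change −1.45), and replicates 1 and 2 put Mir302d above it (0.96), so neither has a direction here.

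At the other end, some features annotated as miRNAs were abundant in total RNA and almost missing with AGO2. Of 1048 miRNA features without a Mir name, mostly named for a genomic clone, 30 were tested, and on the miRNA scale 3 were higher and 22 lower with a median of −2.52, beside 36 higher and 113 lower of 225 features with a Mir name (median −0.54). Both counts are descriptions. AC113316.1 fell most, from 1470.3, 886 and 889 RPM to 1.98, 1.65, 0.776 and 1.298 RPM (miRNA-scale log2 fold change −9.56, SE 0.26, adjusted p = 7.17e-08). AL844840.2 fell from 1389.8 to 2061 RPM to 2.99 to 4.64 RPM and AC154124.1 from 298 to 446 RPM to 0.679 to 1.26 RPM. mmu-mir-689-2, which lies against the strand of *Zc3h7a*, fell from 146 to 199 RPM to 0.393 to 0.522 RPM. In each the lowest total library was over 100 times the highest AGO2 library, and all 4 had passed the filter only through the total libraries. None of these 4 matched a RefSeq hairpin by sequence, while 210 of 250 tested miRNA features did. Mir150, Mir291a, Mir320, Mir328 and Mir467d, named elsewhere here, had no match either. The annotated spans of the 4 features, read from NCBIM37 on the strand of the feature, are shown because 3 of the 4 are over 70% G and C:
AC113316.1 (chr5:147072579-147072660, plus strand, in an intron of *Cdk8*): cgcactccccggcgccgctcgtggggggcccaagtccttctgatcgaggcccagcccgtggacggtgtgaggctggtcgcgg
AL844840.2 (chr2:72850911-72850984, minus strand): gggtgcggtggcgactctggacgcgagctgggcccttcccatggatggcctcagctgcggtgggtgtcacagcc
AC154124.1 (chr5:17282567-17282653, minus strand): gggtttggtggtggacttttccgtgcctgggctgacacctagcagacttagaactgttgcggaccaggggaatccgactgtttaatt
mmu-mir-689-2 (chr16:11144218-11144274, plus strand): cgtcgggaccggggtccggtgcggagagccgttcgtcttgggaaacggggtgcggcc
G and C made up 74.4, 70.3, 52.9 and 73.7% of these spans. This trait is not particular to them, since the span of Mir1247, which was higher with AGO2, also had 74.4%. The "none" library held 175, 455, 122 and 52.5 RPM of the 4 features, above every AGO2 control library, though on few of its 57155 reads. AC122337.1, whose span holds the RefSeq hairpin Mir5099, behaved alike (633 to 672 RPM in total RNA, 1.31 to 1.84 RPM with AGO2), as did Mir2137, with 170.1 to 265 RPM in total RNA and 1 read in a single AGO2 library, which is at least 1226 times lower when 3 reads per library are allowed for.

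Copies of 1 mature miRNA could also differ. AC154660.1 spans the hairpin Mir16-1 in the lincRNA gene *Dleu2*, and Mir16-2 lies in *Smc4*. Both encode the same miR-16-5p (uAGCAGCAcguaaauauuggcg). AC154660.1 had 485, 337 and 485 RPM in total RNA and 18.003, 16.1, 15.6 and 19.6 RPM with AGO2, while Mir16-2 had 24.9, 24.9 and 24.2 RPM and 31.6, 38.2, 33.5 and 30.3 RPM. The ratio of Mir16-2 to AC154660.1 was thus 1.55 to 2.37 with AGO2 and 0.0498 to 0.0739 in total RNA. Reads of the shared mature sequence cannot be told apart between the 2 loci.

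miR-125a and miR-125b share their seed, and against the day 9 totals their hairpins moved in opposite directions. Mir125a gained, as given above, and CT025619.1, which spans the hairpin Mir125b-1, had 345, 287 and 276 RPM in total RNA and 52.6, 45.3, 23.9 and 20.2 RPM with AGO2 (miRNA-scale log2 fold change −3.92, SE 0.35, adjusted p = 5.69e-05). The ratio of Mir125a to CT025619.1 was 118 to 213 with AGO2 and 4.33 to 5.32 in total RNA, without overlap, and in the day 25 control totals it was 40.8 to 91.6, closer to AGO2. Against day 25 the change of CT025619.1 turned to 0.63 in RPM, as it did with TMM (0.96) and median-ratio factors (1.69), and with TMM factors over the miRNAs it was −3.19. The neighbouring hairpin Mir100 (CT009696.2) had 102 to 125 RPM in total RNA, 2.16 to 6.06 RPM with AGO2 and a mean of 1.24 RPM on day 25.

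The comparator mattered for a whole group of such miRNAs. Of the fibroblast markers, set down as a check for feeder cells, 6 of 7 features were tested (2, Mir214 and Mir199a-2, passing only through the total libraries). Of the 6, 4 were lower, 1 was higher and 1 did not pass, beside 92 lower and 94 higher of 255 miRNA features. Their median log2 fold change of −2.49 became 1.63 with TMM factors, 2.35 with median-ratio factors and 0.30 against the day 25 totals. Mir143 had 14551, 10680.0 and 11710.1 RPM in the day 9 totals, 1811, 1492, 1307 and 1607 RPM with AGO2, and a mean of 951 RPM on day 25. Mir145 had 85.4 to 117 RPM, 18.97 to 28.4 RPM and a mean of 45.2 RPM. Mir214 (exon of *Dnm3os*) had 222, 198 and 195 RPM in the day 9 totals and 0.092, 0.435, 0 and 0 RPM with AGO2, with a mean of 0.598 RPM on day 25, and Mir199a-2, from the same transcript, had 19.8 to 22.006 RPM, 0.236 to 0.957 RPM and 0 RPM. Mir21 overlapped between the groups (10912 to 14283 RPM in total RNA and 4857 to 12945 RPM with AGO2, adjusted p = 0.0970). Mir22, the marker that rose, had a mean of 14199 RPM on day 25. In these bulk libraries, fewer cells of a type and less RNA per cell cannot be told apart, and feeder cells in the day 9 cultures cannot be told apart from the pull-down as the source of the difference.

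The let-7 family, abundant in differentiated cells and kept low in ESCs by LIN28, was lower in 5 of the 6 features tested (of 9), beside 92 of 255 miRNA features, with a median log2 fold change of −1.94 that turned to 2.15 with TMM factors, 2.87 with median-ratio factors and 1.71 against day 25. Mirlet7i had 1358, 1015 and 1074 RPM in total RNA and 49.8, 40.8, 127 and 147 RPM with AGO2, 12.6 times less, and a mean of 23.4 RPM on day 25. Mirlet7g had 165 to 224 RPM and 49.5 to 128 RPM, and Mir98, a let-7 with its own name, 104 to 124 RPM and 8.002 to 33.9 RPM. Of the 6, 2 had passed the filter only through the total libraries. The AGO2 pairs differed here, replicates 3 and 4 being the higher. All 9 features together came to 0.0191 to 0.0521% of the miRNA reads with AGO2, 0.265 to 0.339% in the day 9 totals and 0.0119 to 0.0199% in the day 25 totals. Mir10a (in *Hoxb4*) fell from 7193, 5675 and 5807 RPM to 585, 480.0, 448 and 435 RPM, 12.8 times (miRNA-scale log2 fold change −4.44, SE 0.14, adjusted p = 1.62e-07), and its day 25 mean was 1341 RPM. It kept this direction against day 25 and with TMM factors over the miRNAs (−3.70), and turned with TMM factors over all features (0.49) and with median-ratio factors (1.23). Mir221 fell from 352 to 451 RPM to 25.09 to 59.0 RPM, with a day 25 mean of 35.3 RPM.

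Between *Dlk1* and *Dio3* on chromosome 12 lies an imprinted domain whose miRNAs are made from the maternal allele. All 57 features of the region together held 1.74 to 2.23% of the miRNA reads in the day 9 totals and 0.0101 to 0.0749% with AGO2, and the AGO2 pairs stood apart (0.0749 and 0.0699% in replicates 1 and 2, 0.0116 and 0.0101% in 3 and 4). Of these features 30 passed the filter, 29 of them only through the total libraries, so that their falls (29 of 30, median log2 fold change −4.31, or 0.98 against day 25) carry no weight as a count. Mir127, opposite the imprinted gene *Rtl1*, had 5920.1, 4532 and 4615 RPM in total RNA and 173, 176, 3.203 and 3.50 RPM with AGO2 (log2 fold change −7.50, SE 1.42, adjusted p = 0.000756). Mir434 had 987 to 1153 RPM against 105, 87.1, 2.48 and 3.11 RPM, and Mir411 1426 to 1919.8 RPM against 97.9, 86.1, 8.20 and 8.02 RPM. No AGO2 value reached the total libraries, but replicates 1 and 2 lay far above 3 and 4. The exception was Mir1247, at the far end of the domain in *Dio3os*, with 66.1 to 86.9 RPM with AGO2 and 11.6 to 16.4 RPM in total RNA (log2 fold change 2.48).

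In Dnmt1 KO cells the same domain was abundant in both kinds of library, at 10.2 to 11.9% of the miRNA reads with AGO2 and 13.8 to 14.3% in the day 9 totals. Mir127 had 26121 to 34744 RPM with AGO2 and 34320.1 to 38874 RPM in total RNA, and Mir434 14904 to 20644 RPM against 5250.0 to 5378 RPM. The ratio of AGO2 to total was lower in control than in Dnmt1 KO cells, with a log2 difference (control minus Dnmt1 KO) of −7.18 for Mir127 (SE 1.54, adjusted p of the interaction 0.00643), −7.49 for Mir434 (SE 1.36, adjusted p = 0.00177) and −6.08 for Mir411 (SE 0.99, adjusted p = 0.000719). Over all 1564 features tested for it the ratio was lower in control in 130 (8.31%) and higher in 46. Among 293 miRNA features it was lower in control in 60 and higher in 0 (limma), and 43 of the 60 were among the 45 tested of this domain. This test took features at 10 RPM or more in at least 3 libraries of either genotype or kind. Members of the domain could thus enter through the Dnmt1 KO libraries alone, and 30 had passed the control filter. The counts for the domain are therefore descriptions. In the day 25 control totals the domain held only 0.0153 to 0.0250% of the miRNA reads, close to AGO2 control, and in the "none" library 0.129%. Mir127 had a mean of 37.4 RPM on day 25. The level of these miRNAs in the cultures used for the control pull-down and their loading into AGO2 cannot be told apart.

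**Figure D5:**
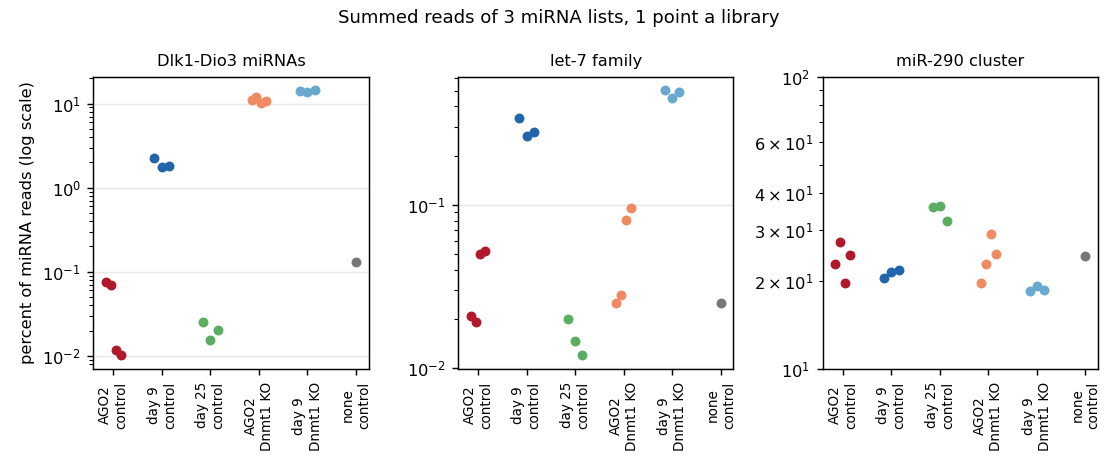
Summed reads of 3 miRNA lists as a percent of the miRNA reads (log axes with different ranges), 1 point a library. Dlk1-Dio3 miRNAs are at 0.0101 to 0.0749% in AGO2 control and at 1.74 to 2.23% in day 9 control, with the day 25 controls near the former. The miR-290 cluster lies between 18.48 and 36.1% in all groups.

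The remaining lists moved less. Over all 255 miRNA features tested, 94 were higher, 92 lower and 69 not called (median 0.12). The 5 miR-302 features had a median log2 fold change of −0.17, with 1 lower and 4 not called. Of the miR-15/16 family 3 of 5 were higher and 2 not called (median 0.42, which turned to −0.32 with the miRNA total as the scale). Of the 119 miRNA features inside *Sfmbt2* 7 were tested, with 1 higher (Mir467d), 1 lower and 5 not called (median 0.39). Of the 11 features of the X-chromosome cluster of miR-465, miR-470, miR-741, miR-743, miR-871 and miR-881 only 2 were tested, and 1 was lower (median −0.43, which turned to 3.49 with TMM factors, 4.14 with median-ratio factors and 1.02 against day 25).

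The 12 ESC markers (miR-290 and miR-302 clusters) were all tested and summed to 19.7 to 27.3% of the miRNA reads with AGO2 and 20.5 to 21.8% in total RNA. The fibroblast markers summed to 4.95 to 8.26% of the miRNA reads with AGO2, 7.40 to 8.94% in the day 9 totals and 4.0 to 4.51% on day 25. Mir22 led this sum with AGO2, and Mir22, Mir143 and Mir21 in the day 9 totals. Neural markers summed to 1.22 to 1.61 RPM with AGO2 and 1.76 to 4.54 RPM in total RNA, muscle markers had no read in any of the 7 libraries, and the liver marker had at most 0.242 RPM. Blood or serum markers summed to 1617 to 2621 RPM with AGO2 and 917 to 1027 RPM in total RNA. Only Mir142 (1103 to 1473 RPM against 723 to 834 RPM) and Mir150 (328 to 1142 RPM against 177 to 188 RPM), both miRNAs of blood cells, passed the filter. Both were higher in RPM and neither passed on the miRNA scale (adjusted p = 0.573 and 0.0521).

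Outside the miRNAs, 79 of 1073 features were higher with AGO2, and 53 of these overlapped a miRNA, whose reads may count for both. The other 26 overlapped none. *Celf2*, the gene of an RNA-binding splicing regulator, had the largest rise of any feature, with 151, 145, 159 and 155 RPM with AGO2 and 2.18, 1.24 and 1.27 RPM in total RNA (97.8 times, log2 fold change 5.93, SE 0.16, adjusted p = 3.39e-10). *3110007F17Rik*, on the X chromosome, had 108, 89.9, 681 and 623 RPM against 11.6 to 14.8 RPM, *Ift57*, a gene of the ciliary transport complex, 14.2 to 24.4 RPM against 0.529 to 0.908 RPM, and *Kdm1a*, which encodes a histone demethylase, 106 to 191 RPM against 16.4 to 18.7 RPM. *Dbn1*, the gene of the actin-binding protein drebrin, had 229.5, 205, 599 and 577 RPM against 41.1 to 46.0 RPM, and the sequence of a RefSeq hairpin, Mir6944, which is no feature of the deposited table, was found within it at chr13:55579042-55579137. Groups without overlap were a condition for naming these 5 genes, and 1224 of the 1328 features tested met it. Each of the 5 genes also rose in Dnmt1 KO cells (log2 fold changes 5.37, 5.16, 4.996, 3.27 and 2.38 in the order named). The "none" library held 227 RPM over *Celf2* and 52.5 RPM over *Ift57*, above every AGO2 control library, though on few reads. Feature BX470216.1, a short RNA of unassigned class against the strand of *Ccdc30*, was the most abundant of these with 2041 to 2807 RPM against 619 to 699.8 RPM. Where in a gene the reads lie was not analysed here, since the table gives 1 value a gene.

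Most genes went the other way. Of 451 genes that overlap no small RNA feature, 430 were lower, 15 higher and 6 not called, with a median log2 fold change of −3.68, near the −3.73 of all features, and 429 of the 451 had passed the filter only through the total libraries. With at least 10 reads in every library 301 were tested (115 of these 451 and others below the first filter), 245 lower and 16 higher, with a median of −1.51. *Itga9*, an integrin gene, fell most among them, from 7402, 6862 and 6866 RPM to 2.85, 1.22, 1.26 and 1.38 RPM.

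The same contrast in Dnmt1 KO cells, in libraries that share none with the control comparison, called 1241 of 1400 features (88.6%). Of the 1123 control calls also tested there, 1091 had the same direction, 1033 of them with a call, and 17 were called in the opposite direction. In control, 973 of the 1328 features had passed the filter only through the total libraries, and the Dnmt1 KO comparison used the same filter. Agreement in direction was thus largely bound to the filter, and these counts are descriptions. The gains named above held there in RPM: Mir423 had 11238 to 13615 RPM with AGO2 against 1163 to 1565 RPM, Mir672 1913 to 2637 against 204 to 241 RPM and Mir141 955 to 1716 against 213 to 261 RPM. So did the falls of AC113316.1 (2.78 to 22.5 against 1576 to 1809 RPM) and Mir10a (429 to 1081 against 9094 to 11753 RPM). Neither these 5 nor the snoRNAs named above passed the interaction test. Mir292 differed between genotypes (interaction −0.82, adjusted p = 0.0221), and in Dnmt1 KO cells it did not pass, with 23669 to 29762 RPM with AGO2 against 21451 to 23086 RPM.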

How the data were processed

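AGO2 control (n = 4) and day 9 control total small RNA libraries (n = 3) were compared, with Dnmt1 KO, day 25 and "none" libraries beside them. Per the labels and methods, the authors trimmed reads with Trim Galore 0.3.5, kept reads of 20 to 24 nt, mapped them to NCBIM37 with Bowtie2 2.2.9 and counted overlaps per gene feature in SeqMonk. The authors deposited RPKM values for 32101 features, without pooling replicates. Counting strand is not given in the sources used here, so whether antisense features share reads is not known; nested features on 1 strand can.

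RPKM times the feature span gave reads per 1000000 reads of the library (RPM), and the smallest step in each library gave its depth. Features with at least 10 RPM in at least 3 of the 7 libraries were tested on log2(RPM + 1) with limma-trend (limma 3.58.1, R 4.3.3, checked on simulated data), with Benjamini-Hochberg adjusted p under 0.05, and miRNA features again with each library scaled to its miRNA sum. Adjusted p-values in the report come from limma unless a permutation test is named. Class shares were compared by exact two-sided permutation tests (SciPy 1.17.1). Alternatives covered scaling, pseudocount, filters, comparator, overlap of features, thinned depth and leaving out each library.

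Members and lists were chosen with earlier results of these data known. Named features were miRNAs of at least 100 RPM with the 8 largest rises and falls, the 6 most abundant miRNAs of each group, the 5 largest rises and falls among features that overlap no miRNA, the most abundant feature of each other class, and list members. The rises and falls were taken only from called features, also called with AGO2 replicates averaged in pairs, whose groups did not overlap. Scarna3a, Snora36b, AC154660.1, CT009696.2, CT025619.1, Mir10a, Mir125a, Mir221 and BX470216.1 were added after their values were seen. Intervals cover counting error only, since reads without molecular identifiers are not independent molecules.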

Additional observations from a re-analysis of the deposited data

Results flagged for a closer look

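In 3 of 100 features and class shares checked, an AGO2 library lay far from its 3 replicates (chance gives about 1 in 20 groups). Snora16a was at 2.203 RPM in AGO2 control replicate 4 and at 0.582 to 0.643 RPM in the others, *Itga9* at 2.847 RPM in replicate 1 and at 1.22 to 1.38 RPM in the others, and Mir2137 at 0.04593 RPM (1 read) in replicate 1 and at 0 in the others. All 3 lay far under the total libraries.

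The AGO2-to-total ratio differed between control and Dnmt1 KO cells by the limma interaction test in 9 of 92 named features, beside 176 of all 1564 tested. All 9 were lower in control (log2 ratio, control minus Dnmt1 KO), as were 130 of the 1564 (8.31%). The differences were −7.18 for Mir127, −7.49 for Mir434 and −6.08 for Mir411, all between *Dlk1* and *Dio3* (adjusted p = 0.0064, 0.0018 and 0.00072). These members of the domain had passed the control filter only through the total libraries. The differences were −1.59 for Mir19b-1 (adjusted p = 0.026), −1.14 for Mir19b-2 (0.040), −0.82 for Mir292 (0.022) and −0.78 for Mir106b (0.033). For *Ift57* the difference was −1.34 (adjusted p = 0.020) and for mt-Rnr2 −1.19 (adjusted p = 0.0055).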

How the results depend on the processing

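Of 2137 recomputed values for 92 named features, 1997 kept their direction and their side of the threshold, 27 lost the call, 45 gained one and 68 turned. The 1220 called features became 15151 without a filter on low values, 734 where each library had to hold 10 reads, 2110 against all 18 control totals and 414 without overlapping features (fewer or more features were tested in each), and 1189 to 1227 without any 1 library. The 174 miRNA calls on the miRNA scale became 272 without a filter and 115 against day 25, and ranged over 158 to 180 without a library. The 1241 Dnmt1 KO calls ranged over 1203 to 1255. The 176 interaction calls became 110 with TMM factors and 115 to 233 without a library, 115 without day 9 Dnmt1 KO replicate 1. The difference in miRNA share of 40.79 points was 31.06 over features inside no other, 40.46 against the day 9 libraries with the suffix R1, 42.68 against day 25, 42.37 against all 18 totals and 58.92 without the 5 most abundant miRNAs, and 40.67 to 40.96 without a library.

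Log2 fold changes turned with the miRNA total as the scale for Scarna3a (−0.22), Mir16-2 (−0.32), Mir25 (−0.27), Mir93 (−0.11), Mir106b (−0.45), Mir182 (−0.11), Mir291a (−0.18), Mir291b (−0.02), Mir293 (−0.23), Mir142 (−0.08), Mir320 (−0.05), Mir17 (−0.76), Mir363 (−0.08) and Mir19b-2 (−0.49). With TMM and with median-ratio factors they turned for Mir302d (3.6 and 4.33), the Y RNA at chr6:47731623-47731724 (2.33 and 3.06), Mir290 (3.48 and 4.22), Mir292 (3.54 and 4.28), CT025619.1 (0.96 and 1.69), Mirlet7g (2.88 and 3.61), Mirlet7i (0.31 and 1.04), Mir98 (1.42 and 2.13), Mir21 (3.52 and 4.26), Mir10a (0.49 and 1.23), Mir18 (3.93 and 4.66), Mir19a (4.13 and 4.87), Mir20a (3.97 and 4.71), Mir19b-1 (0.92 and 1.5), Mir145 (2.07 and 2.78), Mir143 (1.19 and 1.93), Mir221 (0.83 and 1.56), Mir20b (3.34 and 4.08), Mir18b (3.21 and 3.94) and Mir106a (3.36 and 4.10), and with median-ratio factors alone for CT009696.2 (0.07) and AC154660.1 (0.27). Against day 25 they turned for Mir293 (−0.31), CT025619.1 (0.63), Mirlet7g (2.90), Mirlet7i (1.71), Mir98 (1.00), Mir434 (0.93), Mir411 (1.59), Mir143 (0.70), Mir221 (0.30) and Mir19b-2 (−0.62). Mir302a turned with AGO2 replicates 3 and 4 alone (−1.45) and Mir302d with 1 and 2 alone (0.96). List medians turned with the miRNA total for miR-290 (−0.23), miR-106b-25 (−0.27) and miR-15/16 (−0.32), and against day 25 for miR-290 (−0.31), let-7 (1.71), Dlk1-Dio3 (0.98), the X-chromosome cluster (1.02) and fibroblast markers (0.30). With TMM and median-ratio factors they turned for miR-106a-363 (3.69 and 4.37), let-7 (2.15 and 2.87), the X-chromosome cluster (3.49 and 4.14) and fibroblast markers (1.63 and 2.35), and without overlapping features for miR-106a-363 (0.24). The cause of the turns against day 25 was not tested.

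Leaving out a library ended the calls of Mir16-2 (day 9 control replicate 2 or 3) and Mir291b (AGO2 replicate 2 or 4, day 9 replicate 1 or 2), and gave calls to Mir106b, Mir200c and Mir294 (without AGO2 replicate 3), Mir200c (without 4), Mir290 (without 2) and Mir21 (without 1 or 2). AGO2 and total libraries share replicate numbers, but their deviations from the group means did not pair them (r = 0.18, −0.13 and 0.03 in control). With the replicate block, 1207 features, 158 miRNAs on the miRNA scale, 1239 in Dnmt1 KO and 152 interactions were called. Of the named features, Mir291b lost its call and Mir200c gained one, and the block changed no other call. Features with at most 3 reads in every AGO2 library (108 of 1328) have only a bound for their fold.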
